A study of Arabidopsis thaliana with 87 samples.

Results

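MK016 is a transgenic event of Arabidopsis, that is, a line descended from 1 insertion of a transgene. It carries RUBY behind the 35S promoter in the wild-type accession Col-0. All 14 libraries of this event were taken, of 87 in the series, and the other 35S events in Col-0 gave 47 libraries. The libraries fall into 5 leaf classes named in their titles. They are Always Red (label numbers 1 and 2, n = 2) and Fully Red, Red Parts, Green Parts and Fully Green (label numbers 3, 4 and 5, n = 3 each). All came from leaves of 4-week-old plants grown at 22 °C under 18 h of light and 6 h of dark, and all carried 35S::RUBY in Col-0, so no class lacked the transgene.

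RUBY encodes the enzymes that turn tyrosine into betalain, a red pigment, and a leaf that carries the active transgene is red. The 35S promoter, from cauliflower mosaic virus, is active in most plant tissues. When a plant silences such a transgene, RDR6, an RNA-dependent RNA polymerase, copies its transcripts into double-stranded RNA, and Dicer-like enzymes cut that RNA into small RNAs of both strands. DCL4 makes the 21 nt class and DCL2 the 22 nt class, both of which guide the cutting of matching transcripts or block their translation. DCL3 makes the 24 nt class, which guides DNA methylation. Fragments of ordinary transcript breakdown can also be sequenced in this size range. They come mainly from the strand that is transcribed and need not have a preferred length.

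For every library the files gave the reads on the whole transgene in 22 rows, 1 for each length from 18 to 28 nt on each strand. Levels are in RPM, reads per 1000000 mapped reads of the library. A library had 7.98 to 21.6 M mapped reads (M, 1000000) and 8847 to 951124 reads on the transgene, so that 3 reads corresponded to 0.139 to 0.376 RPM. The transgene took 0.0597% to 7.92% of the mapped reads. The labels and files do not say which strand matches the RUBY transcript, so the strands are called plus and minus as deposited. The files do not say where on the transgene a read lay, and the plant's own small RNAs are not used here, so the leaf label could not be checked against other RNAs. The series counts its libraries of an event and phenotype as biological replicates, but whether libraries of 1 number came from the same plant was not given.

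The 5 classes formed a gradient of transgene small RNA from Always Red, the lowest, through Fully Red, Red Parts and Green Parts to Fully Green, the highest. Always Red libraries 1 and 2 held 597 and 717 RPM in total. Fully Red libraries 3, 4 and 5 held 1557, 683 and 2989 RPM. The red classes thus lay close together, and Fully Red number 4 fell between the Always Red libraries. Red Parts 3, 4 and 5 held 3469.98, 5581 and 79188 RPM. Green Parts held 48862, 51312 and 26078 RPM in the same order, and Fully Green held 74907, 73869.7 and 34304 RPM. Red Parts number 5 was therefore the highest of all 14 libraries, while the other Red Parts libraries lay below every green library. In leaf tissue taken in bulk, fewer silenced cells and less small RNA per silenced cell cannot be told apart.

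**Figure D1:**
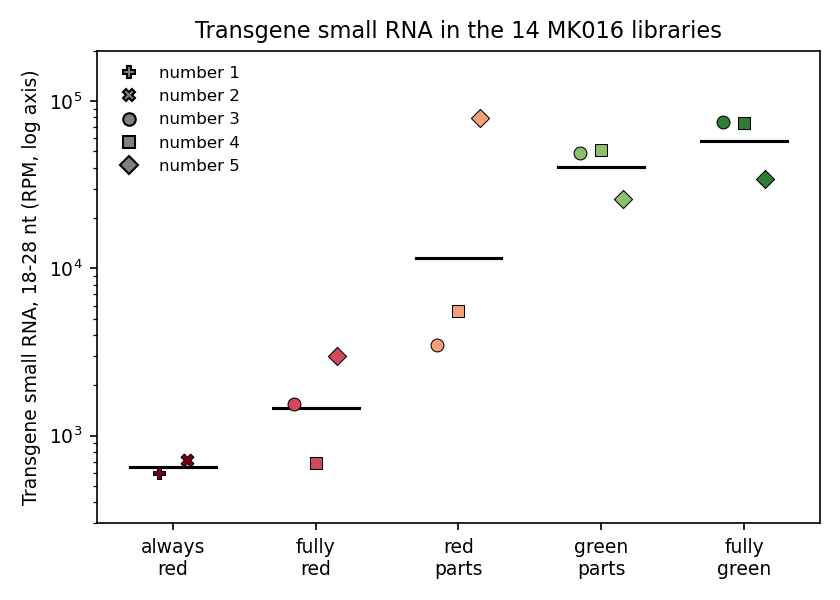
Total transgene small RNA of 18 to 28 nt in RPM (log axis) for the 14 MK016 libraries, by leaf class. Each symbol is 1 library with its shape giving the label number, and horizontal lines are geometric means of the class. Red Parts number 5, at 79188 RPM, stands above every green library, and number 5 is the lowest library of Green Parts and of Fully Green.

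Class means were 657 ± 85.4 RPM (SD, n = 2) for Always Red, 1743 ± 1164 (SD, n = 3) for Fully Red and 29413 ± 43119 (SD, n = 3) for Red Parts. They were 42084 ± 13916 (SD, n = 3) for Green Parts and 61027 ± 23149 (SD, n = 3) for Fully Green. The Red Parts mean was set by 1 library, but its median of 5581 RPM gave Red Parts the same place. An exact permutation test over all assignments of the 14 libraries to the classes put the difference among the 5 totals at p = 0.00338 (adjusted p = 0.00963 over 17 measures), and the geometric mean of Fully Green was 87.7-fold that of Always Red.

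Each length class was tested in the same way. All 9 levels, namely the total, the 6 length classes and both strands, differed among the leaf classes by the exact permutation test, with adjusted p from 0.00864 to 0.0140. With permutation kept within numbers 3, 4 and 5, which leaves out Always Red, 1 of the 9 levels passed (25 to 28 nt, exact permutation adjusted p = 0.0443) and the other 8 had adjusted p from 0.0717 to 0.0772. Without that restriction, but still without Always Red, only the 18 to 20 nt level lost its call (exact permutation adjusted p = 0.0512). The sizes were far from equal. Between the geometric means of Always Red and Fully Green, the 21 nt class, the size of DCL4 products, differed 152-fold. The 22 nt class, the size of DCL2 products, differed 89.96-fold. The 24 nt class, the size of DCL3 products, differed 32.6-fold and the 18 to 20 nt reads 30.8-fold. Only length and strand were known, so whether a read was a Dicer product or a breakdown fragment was not tested. The 23 nt reads differed 15.4-fold and the 25 to 28 nt reads 4.15-fold. On the minus strand the level differed 173-fold and on the plus strand 49.1-fold.

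For 21 nt RNA, Always Red libraries held 283 and 314 RPM. Fully Red numbers 3, 4 and 5 held 903, 348 and 2012 RPM, and Red Parts held 2517, 4313 and 62091 RPM. Green Parts held 39001.5, 41270.1 and 18657 RPM, and Fully Green held 60303, 58586 and 26749.6 RPM. The 21 nt reads followed the total, of which they were the largest length class in every library. The 22 nt level ran from 63.6 RPM in Always Red number 1 to 8511 RPM in Red Parts number 5, with Fully Green number 3 next at 8434 RPM.

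The 24 nt level was 32.04 and 42.6 RPM in Always Red and 68.5, 33.3 and 70.9 RPM in Fully Red numbers 3, 4 and 5. In Red Parts it was 66.7, 109 and 1031 RPM. It reached 1012, 969 and 423 RPM in Green Parts and 1689, 1471 and 762 RPM in Fully Green. Red Parts number 3 thus lay within the Fully Red range in the 24 nt class, although its total was above every Fully Red library. Reads of 25 to 28 nt varied least, at 98.2 and 124 RPM in Always Red, 170, 96.8 and 89.3 RPM in Fully Red and 125, 107 and 155 RPM in Red Parts. Green Parts held 437, 367 and 187 RPM of these lengths and Fully Green 663, 629 and 235 RPM. In these longest reads all 8 libraries of the red classes were below all 6 of the green classes, and Fully Red had a lower median than Always Red.

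**Figure D2:**
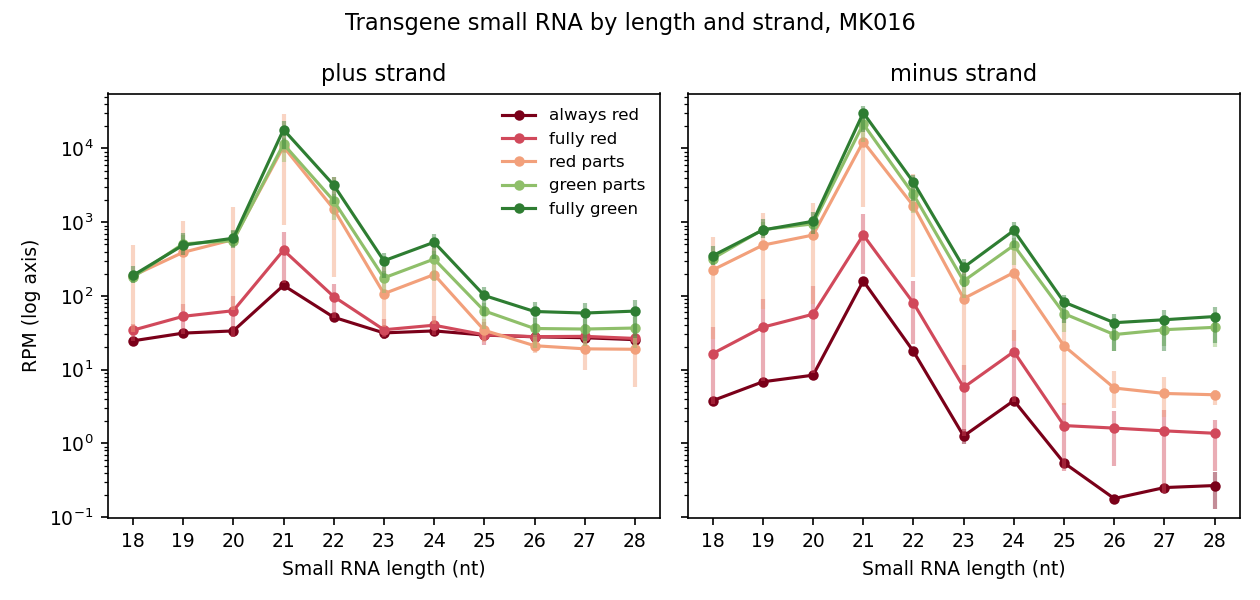
Level of each length in RPM (log axis) on the plus strand (left) and the minus strand (right), by leaf class in MK016. Points joined by lines are class means of 2 or 3 libraries and pale bars run from the lowest to the highest library. On the plus strand the Always Red, Fully Red and Red Parts means come together from 25 nt upward, whereas on the minus strand the 5 means keep the order of the totals at every length but 19 nt.

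Row by row, the 5 class means kept the order of the totals in 15 of 22 rows, namely 10 of 11 on the minus strand and 5 of 11 on the plus strand. The exceptions were the plus rows of 18 to 20 nt, in which Red Parts or Green Parts had the higher mean of neighbouring classes, the 19 nt minus row, and the plus rows of 26 to 28 nt. In the last, Red Parts had the lowest mean of all classes.

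Pairs of classes were compared next. With 3 libraries against 3, or against 2 for Always Red, an exact permutation test cannot go below p = 0.1. Fully Green was 39.1-fold Fully Red in geometric mean total (log2 difference 5.29 ± 0.72 SE, exact permutation p = 0.1) and no library of one class reached the other. Red Parts was 7.84-fold Fully Red (log2 difference 2.97 ± 1.53 SE, exact permutation p = 0.1), again without overlap. Green Parts was 3.49-fold Red Parts (log2 difference 1.80 ± 1.44 SE, exact permutation p = 0.4), and the ranges overlapped through Red Parts number 5. Without number 5 in either class the same ratio was 11.4. Fully Green was 1.43-fold Green Parts (log2 difference 0.51 ± 0.49 SE, exact permutation p = 0.3) and Fully Red was 2.25-fold Always Red (log2 difference 1.17 ± 0.63 SE, exact permutation p = 0.3), both with overlapping ranges. In 2 of the 9 levels, 21 nt and the minus strand, Fully Red and Always Red did not overlap. Fully Red was there 2.87-fold and 3.26-fold Always Red (exact permutation p = 0.2 for both). The totals of Fully Green and Green Parts overlapped through number 5. Without it the ratio was 1.49 and the 2 libraries of each class did not overlap, and within each number Fully Green had the higher total. No pair of classes could pass at p under 0.05 in this permutation test, given its floor of p = 0.1.

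The 22 rows were then tested one by one on read counts with edgeR's quasi-likelihood test, fitted to all 14 libraries, with Benjamini-Hochberg adjustment over 110 tests. Its fold changes compare arithmetic means, in which a single high library weighs more than in the geometric means above. The rows of a library move together, so a count of rows is not a count of independent results. From Fully Red to Fully Green, 18 of 22 rows passed at adjusted p under 0.05 (81.8% of the rows), all higher in Fully Green. They comprised all 11 minus rows and 7 of 11 plus rows. The 21 nt plus row was 374, 149 and 728 RPM in Fully Red and 23327, 20958 and 9860.22 RPM in Fully Green (log2 fold change 5.44 ± 1.21 SE, edgeR adjusted p = 0.00175). The 21 nt minus row was 529, 199 and 1284 RPM against 36976, 37629 and 16889 RPM (log2 fold change 5.51 ± 1.17 SE, edgeR adjusted p = 0.00175). In both DCL4-sized rows the lowest Fully Green library stood far above the highest Fully Red one.

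The 22 nt rows differed between the same classes by a log2 fold change of 5.02 ± 1.12 SE on the plus strand and 5.44 ± 1.19 SE on the minus strand. For 24 nt, the size of DCL3 products, the strands separated further, with 3.74 ± 0.98 SE on the plus strand and 5.46 ± 1.19 SE on the minus strand. The largest fold change was that of 25 nt minus at 5.55 and the smallest that of 27 nt plus at 1.05. The 4 rows that did not pass were the plus rows of 25 to 28 nt, with edgeR adjusted p between 0.0990 and 0.388. For 27 nt plus the Fully Red libraries held 41.9, 24.7 and 18.3 RPM and the Fully Green libraries 79.1, 72.2 and 24.3 RPM, so this row overlapped.

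Between Fully Red and Red Parts, 12 of 22 rows passed (54.5% of the rows), all higher in Red Parts. They were 8 minus rows, 18 to 25 nt, and 4 plus rows, 19 to 22 nt. The 21 nt plus row had the largest log2 fold change, 4.67 ± 1.17 SE (edgeR adjusted p = 0.00527), and 27 nt plus the smallest, -0.56 ± 0.79 SE (edgeR adjusted p = 0.698). The 24 nt minus row passed at 3.56 ± 1.09 SE (edgeR adjusted p = 0.0145) and the 24 nt plus row did not, at 2.28 ± 0.92 SE (edgeR adjusted p = 0.0633). Leaving out Red Parts number 5 alone left 2 rows, both on the minus strand, whereas leaving out number 5 in all 4 classes left 13 rows and a ratio of geometric mean totals of 4.26 without overlap. Without Fully Red 3 or Fully Red 4 the count was 4 or 5. Fitted within label numbers, 3 rows passed.

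Between Red Parts and Green Parts only the 26, 27 and 28 nt minus rows passed (13.6% of the rows), all higher in Green Parts. For 26 nt minus, Red Parts numbers 3, 4 and 5 held 3.01, 4.34 and 9.53 RPM and Green Parts 38.4, 33.7 and 17.6 RPM. The log2 fold changes of these rows were 2.41 ± 0.87 SE, 2.88 ± 0.94 SE and 3.04 ± 0.88 SE, with edgeR adjusted p of 0.0356, 0.0197 and 0.0110. The 21 nt plus row had a log2 fold change of 0.12 ± 1.00 SE and the 21 nt minus row 0.80 ± 0.97 SE, neither of which passed. The smallest fold change was -0.06 for 18 nt plus. Without Red Parts number 5, 18 rows passed, all 11 minus rows among them, whereas 1 row passed without Green Parts 3 or 4 or in the fit within label numbers. The number of rows called in this contrast therefore depended on single libraries of both classes.

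Between Green Parts and Fully Green, 0 of 22 rows passed (0% of the rows), and 0 had an unadjusted p under 0.05 in edgeR or an adjusted p under 0.05 in DESeq2. The fitted log2 fold changes ran from -0.06 for 19 nt plus to 0.77 for 23 nt plus. SEs were close to 1 for the 21 nt rows, from a spread shared by all 14 libraries. A difference of the size of the fitted changes was thus not detectable in this fit. The fit of these 2 classes alone also called 0 rows. Between Always Red and Fully Red, 1 of 22 rows passed (4.55% of the rows). This was 26 nt minus, with a log2 fold change of 3.12 ± 1.14 SE (edgeR adjusted p = 0.0385), and the smallest fold change was 0.01 for 26 nt plus. The call rested on 5 reads in the Always Red libraries against 91 in the Fully Red libraries, a ratio per mapped read of 9.84 with an exact 95% interval of 4.06 to 31.0 for counting error only. It was lost on leaving out any 1 of 8 libraries, namely either Always Red library, Fully Red 3 or 5, Green Parts 3 or 4, or Fully Green 3 or 4. Without Red Parts number 5, by contrast, 10 rows passed.

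The length make-up also changed along the gradient. The share of 21 nt among all transgene reads was 47.4% and 43.8% in Always Red and 58.0%, 50.9% and 67.3% in Fully Red 3, 4 and 5. It was 72.5%, 77.3% and 78.4% in Red Parts, 79.8%, 80.4% and 71.5% in Green Parts and 80.5%, 79.3% and 78.0% in Fully Green. The class means were 45.6% ± 2.57 (SD, n = 2), 58.7% ± 8.23 (SD, n = 3), 76.1% ± 3.12 (SD, n = 3), 77.3% ± 4.96 (SD, n = 3) and 79.3% ± 1.26 (SD, n = 3) in the order of the totals. All 9 libraries of Red Parts, Green Parts and Fully Green were above 70%, and all 5 of Always Red and Fully Red were below it. Classes differed with an adjusted p of 0.00864 in the exact permutation test, and the means of Fully Green and Always Red lay 33.7 percentage points apart. Red Parts, which lay between the red and green leaves in level, thus had a 21 nt share that overlapped with that of Green Parts (exact permutation p = 0.6) and not with that of Fully Red (exact permutation p = 0.1, the smallest possible).

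The 22 nt share lay between 9.27% and 11.3% in all 14 libraries and did not differ among classes past the threshold (exact permutation adjusted p = 0.274). The DCL2-sized part was thus the steadiest of the length shares given here. The 24 nt share was highest in the red leaves, with class means of 5.65% in Always Red, 3.88% in Fully Red, 1.73% in Red Parts, 1.86% in Green Parts and 2.16% in Fully Green (exact permutation adjusted p = 0.00864). The 24 nt level nevertheless rose along the same classes, as given above. The share of 25 to 28 nt fell from a mean of 16.9% in Always Red to 9.35% in Fully Red, 1.91% in Red Parts, 0.776% in Green Parts and 0.808% in Fully Green (exact permutation adjusted p = 0.0123). The share of 18 to 20 nt had means of 16.4%, 14.7%, 8.47%, 9.18% and 5.96% in the same order (exact permutation adjusted p = 0.0293). Shares of 1 library sum to 100%, so these tests are not independent of each other.

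The strand make-up differed among classes too. The minus strand held 32.1% and 29.8% of the reads in Always Red, and 42.6%, 36.2% and 59.0% in Fully Red 3, 4 and 5. It held 57.6%, 61.7% and 52.9% in Red Parts, 62.9%, 64.5% and 62.9% in Green Parts and 59.9%, 62.6% and 61.5% in Fully Green. Plus reads were in the majority in the Always Red libraries and in Fully Red 3 and 4, and minus reads in the other 10 libraries. The class means were 30.9% ± 1.66 (SD, n = 2), 45.9% ± 11.8 (SD, n = 3), 57.4% ± 4.42 (SD, n = 3), 63.5% ± 0.944 (SD, n = 3) and 61.3% ± 1.37 (SD, n = 3), with Green Parts and not Fully Green the highest. The classes differed with an exact permutation adjusted p of 0.0129.

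The strand balance depended on length. Among 21 nt reads alone, the minus strand was in the majority in every library, with 53.4% and 53.5% in Always Red and 58.5%, 57.3% and 63.8% in Fully Red. It was 63.4%, 65.3% and 52.8% in Red Parts, 64.4%, 66.2% and 64.8% in Green Parts and 61.3%, 64.2% and 63.1% in Fully Green. Classes did not differ in this share past the threshold (exact permutation adjusted p = 0.0751), but the adjusted p was 0.00722 without Red Parts number 5, the lowest library of all. At 24 nt the class means of the minus share were 10.2%, 26.9%, 45.7%, 60.8% and 59.0% from Always Red to Fully Green, and at 23 nt they were 3.80%, 14.1%, 34.3%, 47.3% and 44.7%. For lengths from 25 to 28 nt the class means were 0.659% to 1.83% in Always Red, 5.38% to 6.25% in Fully Red and 21.6% to 28.7% in Red Parts. They were 45.7% to 50.4% in Green Parts and 40.7% to 45.9% in Fully Green. Long reads were thus nearly all from the plus strand in Always Red and came from both strands in green tissue.

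**Figure D3:**
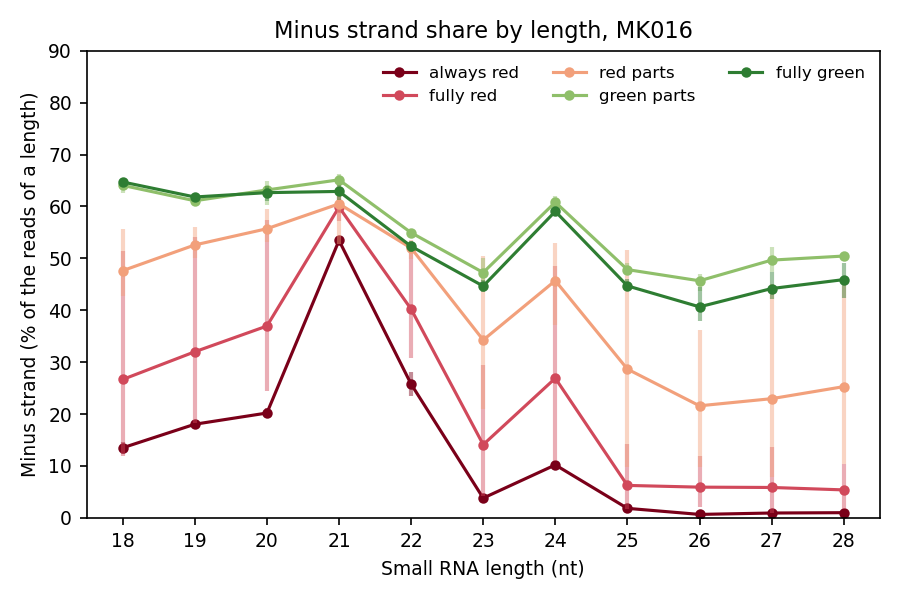
Minus strand share of the reads of each length, as a percentage, by leaf class in MK016. Points joined by lines are class means of 2 or 3 libraries and pale bars run from the lowest to the highest library. The classes come closest at 21 nt, where every library is above 50%, and lie farther apart at 18 to 20 nt and from 23 nt upward.

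Each strand was also taken on its own, in 6 tests added after these values had been seen and adjusted among themselves. Within the minus strand the 21 nt reads made up 78.9% and 78.7% in Always Red and 79.8%, 80.5% and 72.9% in Fully Red. They made up 79.8%, 81.8% and 78.3% in Red Parts, 81.8%, 82.5% and 73.6% in Green Parts and 82.5%, 81.4% and 80.1% in Fully Green. The Always Red values lay below 5 of the 6 green libraries and above Green Parts number 5, and classes did not differ past the threshold (exact permutation adjusted p = 0.769). Within the plus strand the 21 nt reads made up 32.5% and 29.02% in Always Red, 41.9%, 34.1% and 59.3% in Fully Red and 62.7%, 69.96% and 78.6% in Red Parts. They made up 76.5%, 76.7% and 68.0% in Green Parts and 77.6%, 75.8% and 74.6% in Fully Green, and classes differed (exact permutation adjusted p = 0.00541).

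Other lengths were split in the same way. The 25 to 28 nt percentage differed among classes within the plus strand (exact permutation adjusted p = 0.00541) and did not pass within the minus strand (0.562). The number of 24 nt reads per 100 reads of 21 nt ranged from 1.65 to 26.2 on the plus strand (exact permutation adjusted p = 0.0222) and from 1.55 to 2.75 on the minus strand (0.0621). The last test passed without Fully Red number 4 (exact permutation adjusted p = 0.00471). For 22 nt reads per 100 reads of 21 nt the plus strand ranged from 13.8 to 38.9 and the minus strand from 10.4 to 13.6. The plus strand means were 36.8 in Always Red, 26.7 in Fully Red, 17.7 in Red Parts, 16.9 in Green Parts and 17.7 in Fully Green. The ratio of 22 to 21 nt was not tested on either strand. The plus and minus strands were not tested against each other.

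**Figure D4:**
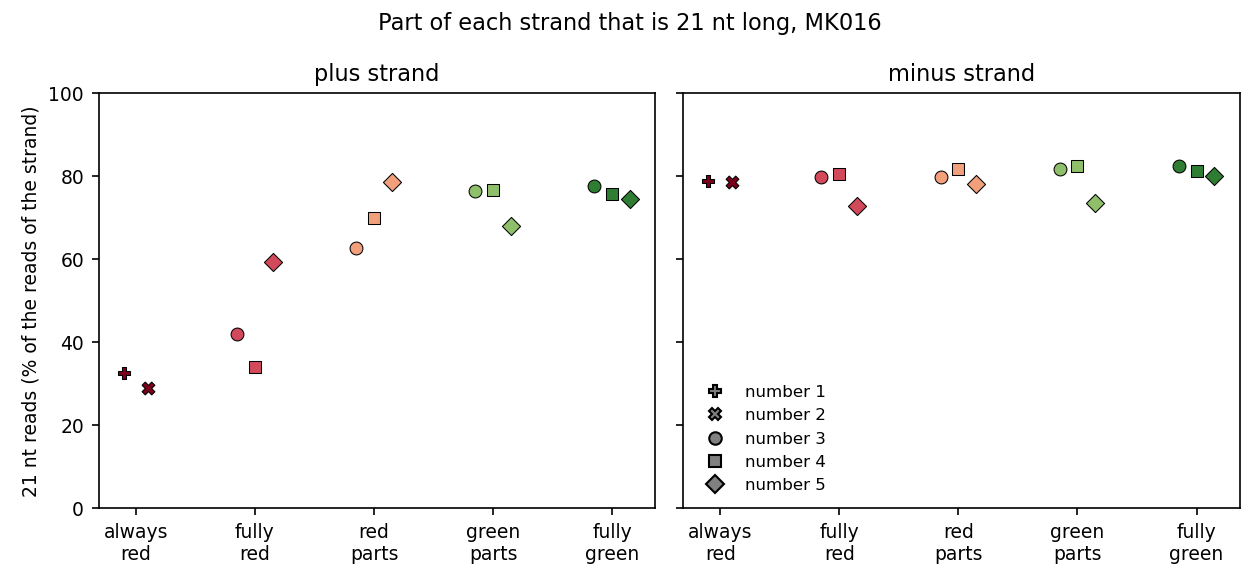
Percentage of the reads of a strand that are 21 nt long, for the plus strand (left) and the minus strand (right), by leaf class. Each symbol is 1 of the 14 MK016 libraries with its shape giving the label number. On the plus strand the values run from 29.02% to 78.6%, and on the minus strand from 72.9% to 82.5%.

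The total of label number 5 lay outside the range of numbers 3 and 4 in all 4 classes that have it, and in opposite directions. In total RPM, number 5 was 2.90-fold the geometric mean of 3 and 4 in Fully Red and 18.0-fold in Red Parts. It was 1.92-fold lower in Green Parts and 2.17-fold lower in Fully Green. Numbers 3 and 4 differed from each other by 2.28-fold, 1.61-fold, 1.05-fold and 1.01-fold in the same order of classes. Number 5 was therefore higher in both red classes and lower in both green classes. Measured in RPM, it lay each time farther off than the gap between the other libraries. On the fold scale this did not hold in Fully Red, with 1557, 683 and 2989 RPM in numbers 3, 4 and 5. There number 4 was farther from number 3 than number 5 was. These comparisons set 1 library against 2, and number 5 was singled out with its values known, so no test was made.

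The contrasts between classes changed accordingly. Fully Green was 48.1-fold Fully Red among libraries numbered 3, 108-fold among those numbered 4 and 11.5-fold among those numbered 5. Red Parts was 2.23-fold, 8.17-fold and 26.5-fold Fully Red. Green Parts was 14.1-fold and 9.19-fold Red Parts for numbers 3 and 4, with all 22 rows higher in Green Parts. For number 5, Red Parts was 3.04-fold Green Parts, and 6 of 22 rows were higher in Green Parts. The step from Green Parts to Fully Green varied least over the numbers, at 1.53-fold, 1.44-fold and 1.32-fold.

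Row by row, Fully Green number 5 was the lowest of its class in 22 of 22 rows. Green Parts number 5 was the lowest in 16 rows, those of 21 to 28 nt, and the highest in 6 rows, those of 18 to 20 nt. Its 18 to 20 nt level was 4189 RPM against 2936 and 2811 RPM in numbers 3 and 4, and these lengths made up 16.1% of its reads against 6.01% and 5.48%. Fully Red number 5 also had many short reads, at 14.9% of its minus strand, with 15.5% in Green Parts number 5 and 4.38% to 9.76% in the other 12 libraries. These libraries had the most mapped reads of the 14, at 21.6 and 21.2 M, and the part of depth or of read trimming in their short reads was not tested.

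Red Parts number 5 was the highest of its class in 18 rows, between the others in 1 (28 nt minus) and the lowest in 3, the plus rows of 26, 27 and 28 nt. Those 3 rows held 16.8, 9.78 and 5.89 RPM, although its 21 nt plus row held 29324 RPM against 921 and 1495.17 RPM in numbers 3 and 4. Reads of 25 to 28 nt made up 0.196% of this library, against 3.61% and 1.91% in numbers 3 and 4. Its minus share of 21 nt reads was 52.8%, against 63.4% and 65.3%. Its total lay above every green library of MK016, the highest of which held 74907 RPM. Whether the tissue sampled matched the label could not be checked from the files, which bears on every Red Parts mean and contrast. The minus share of 21 nt reads in Red Parts number 5 was the lowest of the 14 libraries, and its longest plus reads were the scarcest. It also had the fewest mapped reads, 7.98 M, and the part of that in these values was not tested.

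Fully Red number 5 was the highest of its class in 15 rows, between in 2 and the lowest in 5, the plus rows of 23 nt and of 25 to 28 nt. Its 21 nt share of 67.3% and minus share of 59.0% were closer to the Red Parts means, 76.1% and 57.4%. The means of Fully Red numbers 3 and 4 were 54.5% and 39.4%. By single libraries, its 21 nt share was nearer to Fully Red number 3 (58.0%) than to Red Parts numbers 4 and 5 (77.3% and 78.4%). Fully Red number 4, in contrast, had a total of 683 RPM, within the Always Red range, and a minus share of 36.2%, against 32.1% in Always Red number 1.

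**Figure D5:**
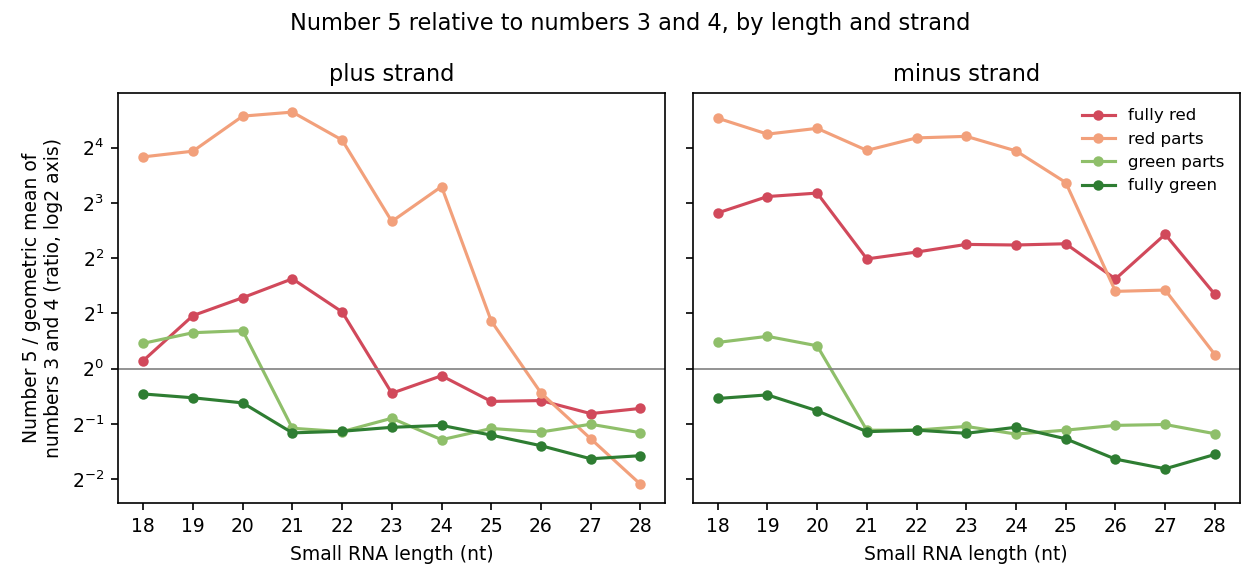
Level in the library numbered 5 divided by the geometric mean of numbers 3 and 4 (log2 axis), by length, for the plus strand (left) and the minus strand (right). Each line is 1 of the 4 leaf classes and the grey line marks equal levels. Fully Green lies below the grey line at every length, Green Parts lies above it at 18 to 20 nt only, and Red Parts falls below it at 26 to 28 nt on the plus strand.

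Other 35S events in Col-0 put these libraries in context. Red Parts number 5 had the highest total of 13 Red Parts libraries, the others lying between 1399 and 25783 RPM, and the lowest 25 to 28 nt share. Its minus share of 21 nt reads, 52.8%, ranked 12 of 13 from the highest, the others lying between 51.3% and 67.2%. Fully Red number 5 had the highest total of 13 Fully Red libraries, the others lying between 446 and 2225 RPM. Green Parts number 5 had the highest 18 to 20 nt share of 13, the others lying between 4.83% and 14.7%. In some other measures number 5 lay within its class. The total of Green Parts number 5 ranked 9 of 13 from the highest and that of Fully Green number 5 ranked 7 of 9, and the 18 to 20 nt share of Fully Red number 5 ranked 7 of 13. The 25 to 28 nt share of Fully Green number 5, at 0.686%, was the lowest of 9.

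As an event mean, the MK016 total ranked 1 of 6 events in Always Red, 2 of 8 in Fully Red, 1 of 8 in Red Parts, 2 of 8 in Green Parts and 3 of 6 in Fully Green, counted from the highest. The first rank in Red Parts rested on number 5, since the mean of numbers 3 and 4 was 4526 RPM and the highest other event had 25783 RPM. The MK016 minus share in Green Parts ranked 1 of 8. The differences between classes were compared with those of the other events, pairing libraries by event and label number. For Green Parts over Red Parts, the log2 difference in total averaged 1.80 in MK016, from -1.60 to 3.82 over its 3 pairs, and 2.67 over 10 pairs of other events, from 0.33 to 4.83. In 12 such tests of totals, 21 nt shares and minus shares, exact permutation p ran from 0.280 to 0.976 and every adjusted p was 0.976. The class differences of MK016 were thus not separated from those of other events. Pairs of 1 event share an insertion, so these p-values describe these libraries.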

How the data were processed

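RNA was extracted with TRIzol and libraries were made with the TruSeq small RNA kit, per the labels' protocols. The authors deposited, for each library, the read count of each transgene length and strand and the RPM, which is that count divided by the mapped reads and multiplied by 1000000. Every line used was checked for this relation, and with a relative tolerance of 1e-06 there were 0 exceptions. The TAIR 10 build is named per the submitters' processing notes. For the aligner, trimming and reads with several matches, the entry is: not given in the sources used here. With 2 or 3 libraries a class, precision was more by their spread than by depth.

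Levels were tested as log2(RPM + 1), with a pseudocount of 1.0 RPM, and shares as percentages of 18 to 28 nt reads. Differences among the 5 classes were tested with an exact permutation test of the between-class sum of squares, adjusted by Benjamini-Hochberg over 17 measures. Pairs of classes were compared by two-sided exact permutation tests of the difference in means. Rows with at least 10 reads in at least 2 libraries, which all 22 were, were tested with edgeR 4.0.16 (quasi-likelihood, library size set to the mapped reads, no further factor), and DESeq2 1.42.0 was an alternative. SEs of edgeR fold changes were taken as the log2 fold change divided by the square root of F. Python 3.11.15, numpy 2.4.6, scipy 1.17.1 and R 4.3.3 were used, and the procedures were tested on simulated data. Named features were the total, the length classes, each strand, the 21, 22 and 24 nt rows on each strand, and the rows with the largest and smallest fitted fold change per contrast. Other rows named beside a count of calls or for number 5 were chosen after their values were seen. The libraries, lists and tests were chosen with earlier results of these data known. The tests within each strand, and the fits without Red Parts and Fully Red of number 5, were added after seeing the data.

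No pair of libraries of 1 class agreed within sampling noise (chi-squared p over 0.05 in 0 of 13 pairs). Pairing by label number was checked by correlating the deviations of the 22 log2 rows from their class means. The correlation was above 0.1 in 14 of 18 pairs of same-numbered libraries, and in all 3 pairs only between Fully Red and Red Parts and between Red Parts and Green Parts. Most same-numbered pairs thus correlated in their profile over the rows, and this check was not a reason to leave number out. A correlation leaves out a shift common to all rows, so the check could not show whether levels paired. Red Parts and Green Parts number 5 correlated at 0.443, although their totals lay off in opposite directions. The classes were fitted without number as a block because the sources do not say which libraries share a plant. The blocked counts of those relations are given beside them. With the block, the total, the 21 nt share and the minus share did not pass (exact permutation adjusted p from 0.0717 to 0.0780).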

Additional observations from a re-analysis of the deposited data

How the results depend on the processing

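With label number as a replicate block over 4 classes, adjusted exact permutation p rose to 0.0717 for the total, 0.0724 for the 21 nt share and 0.0780 for the minus share. Of the other levels, 25 to 28 nt passed (0.0443) and the rest had 0.0717 to 0.0772, while the 23 nt and 25 to 28 nt shares (both 0.0717) and the 18 to 20 nt share (0.110) lost their calls. The edgeR count with the replicate block was 3 rows for Red Parts over Fully Red and 1 for Green Parts over Red Parts, and of same-numbered libraries 7 of 12 correlated best with their own number. Over the same 4 classes without the block, the total, the 21 nt share and the minus share kept their calls. The cause of these changes was not tested.

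TMM factors over the 22 rows, which assume that most rows do not change, gave 11 rows (5 higher, 6 lower) for Fully Green over Fully Red, 2 for Red Parts over Fully Red, 0 for Green Parts over Red Parts and 0 for Fully Red over Always Red. They turned 24 nt plus to -1.37 and 27 nt plus to -4.28 on the log2 scale for Fully Green over Fully Red. Fits of only the classes compared, which hold fewer libraries, gave 0 rows for Green Parts over Red Parts, 0 for Red Parts over Fully Red and 2 for Fully Red over Always Red. DESeq2 gave 4 rows for the last. Without number 5, edgeR gave 19 rows for Green Parts over Red Parts 6 for Fully Red over Always Red, 13 for Red Parts over Fully Red and 22 for Fully Green over Fully Red, and 18 nt plus turned to 2.20 for Green Parts over Red Parts (-0.56 to 2.37 on leaving out 1 library, the highest without Red Parts number 5).

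Leaving out 1 library at a time gave 12 to 19 rows for Fully Green over Fully Red, 1 to 18 for Green Parts over Red Parts, 2 to 14 for Red Parts over Fully Red and 0 to 10 for Fully Red over Always Red. The count for Red Parts over Fully Red was 4 without Fully Red 3, 5 without Fully Red 4 and 2 without Red Parts 5. For Fully Red over Always Red it was 2 without Red Parts 3 or 4. Adjusted p of the class tests stayed between 0.00047 and 0.0245 for the total, 0.000889 and 0.0245 for the 21 nt share and 0.000396 and 0.0247 for the minus share. The 18 to 20 nt share lost its call on ranks (0.103), without Always Red (0.0920) and without Red Parts and Fully Red of number 5 (0.0863). The 18 to 20 nt level did so on ranks (0.0519) and without Always Red (0.0512). The share also lost it without any 1 of 6 libraries (0.0563 to 0.0767), which were both of Always Red, Fully Red 4 and 5 and Fully Green 3 and 4. Taken over 21 to 24 nt reads only, the 22 nt share passed (0.00925), and the minus share of 21 nt passed without number 5 (0.00771), without Red Parts number 4 (0.0428) and without Red Parts and Fully Red of number 5 (0.000552). The cause was not tested.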
